A study of Mus musculus with 6 samples.

Results

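The 10 genes described here belong to insulin and insulin-like growth factor (IGF) signalling: the ligand gene Igf1, the receptor genes Igf1r and Insr, the adaptor gene Irs2 and the IGF-binding protein genes Igfbp2, Igfbp3, Igfbp4, Igfbp5, Igfbp6 and Igfbp7. They were taken by symbol from the deposited expression table, in which each of the 10 has 1 of 43383 rows. The study set out to learn whether astrocytes of different cortical layers differ in gene expression. Upper-layer astrocytes (ULAs, dissected with layers II–IV) and deep-layer astrocytes (DLAs, dissected with layers V and VI) were sorted as GFP-positive cells from the somatosensory cortex of 3 male mice, 4 weeks old. Both groups come from the same Aldh1l1-eGFP line, in which the promoter of the astrocyte gene Aldh1l1 drives GFP, with no treatment. Meninges, layer I, the corpus callosum and part of the border between layers IV and V were left out of both tissues. Each brain gave 1 ULA and 1 DLA library, 6 libraries in all.

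IGF1, IGF2 and insulin bind the receptor tyrosine kinases encoded by Igf1r and Insr, which phosphorylate adaptors such as IRS2. The adaptors recruit phosphoinositide 3-kinase, which leads to activation of AKT and, further on, to inhibition of FOXO transcription factors and activation of mTOR. IGF-binding proteins are secreted proteins that hold IGFs outside the cell, so that they both carry the ligand and limit its access to the receptor, until proteases cut them. In the brain the pathway is known for its part in growth, survival and metabolism, and IGFBP2 is known as a binding protein that astrocytes make.

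Values are RPKM, that is, read numbers scaled by mRNA length and by library size, so that levels of different genes can be compared. The steps between low values put the depth at 24.4 to 26.7 M reads in the ULA libraries and 19.7 to 29.6 M reads in the DLA libraries, lowest in the DLAs of brain 2. Astrocyte mRNAs prevailed, as the cell type label has it: the 7 astrocyte markers examined summed to between 9316 and 10930 RPKM in each library. Of these 7, Gfap passed the test described further on, as higher in DLAs (log2 fold change −0.93). Slc1a2, Slc1a3 and Gja1 were higher in ULAs without overlap, but none of them passed. The 10 endothelial markers summed to at most 4.24 RPKM, the 7 neuronal markers to at most 6.87 and the 4 oligodendrocyte precursor markers to at most 0.99. The 9 microglial markers summed to 13.96 to 14.9 RPKM in ULAs and 9.14 to 12.3 RPKM in DLAs, without overlap and with most of it from P2ry12, since the other 8 each averaged under 1 RPKM. The 9 pericyte and smooth muscle markers summed to 12.01 to 23.2 RPKM, most of it from Pdgfrb (10.31 to 19.84 RPKM). Only 2 of the 9, Pdgfrb and Rgs5, reached the level for the test described further on. Rgs5 passed, as higher in ULAs, and Pdgfrb did not (log2 fold change 0.08). Abcc9 was at 0. The sums of the oligodendrocyte, blood and fibroblast markers also did not overlap between the layers. The 7 oligodendrocyte markers summed to 64.5 to 102.4 RPKM in ULAs and 119.5 to 134.1 in DLAs. The 3 measured red blood cell genes summed to 0.81 to 1.07 and 4.70 to 32.6 RPKM, respectively. The 5 fibroblast markers summed to 3.07 to 4.10 RPKM in ULAs and 4.95 to 6.27 RPKM in DLAs, most of it from Col1a1. Col1a1 was the only fibroblast marker tested, and it did not pass.

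Igfbp2 dominated the family in both layers. The ULA mean was 1164 ± 400.4 RPKM (SD, n = 3) and the DLA mean 850.9 ± 141.3 RPKM, and over the 6 libraries it ranked 45th among all rows of the table. It made up between 98.5% and 99.2% of the summed RPKM of Igfbp1 to Igfbp7 in every library. The next binding protein, Igfbp4, was lower by a factor of 92.7 to 227.1, depending on the library. The mRNA of Igfbp2 has 4 exons and 1327 bases, on the plus strand of chromosome 1 from 72871054 to 72899045 (coordinates of the table, for which the submitters name build mm9). Igfbp5 lies on the opposite strand of the same chromosome, from 72904639 to 72921439, so that the 3′ ends of the pair are 5593 bases apart with no other row of the table between them. The RPKM of Igfbp5 was only 2.84 ± 0.607 in ULAs and 3.14 ± 0.396 in DLAs. Igfbp1 and Igfbp3 are arranged in the same way on chromosome 11, 3546 bases apart, and both were at or near 0.

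In the test across all rows with a mean of at least 1 RPKM, which 6 of the 10 genes reached, 0 of the 6 passed in either direction (limma on log2(RPKM + 1), brain and layer as terms, Benjamini-Hochberg adjusted p under 0.05). Of all 13999 rows tested, 0.714% passed as higher in ULAs and 0.914% as higher in DLAs. At an unadjusted p under 0.05, Igfbp4 and Igfbp2 were higher in ULAs and none of the 6 was higher in DLAs, against 5.64% and 10.8% of all rows, respectively. The lean of all rows towards DLAs depended on which scaling was used. As deposited, 100 rows passed as higher in ULAs and 128 in DLAs. After quantile normalization these were 138 and 103, with 1092 and 1085 at an unadjusted p under 0.05. After median centring the lean stayed, at 108 and 118, with 860 and 1287 at an unadjusted p under 0.05. The log2 fold changes (upper/deep) of the 6 genes had a median of 0.06, with a median of −0.03 over all rows tested. In sorted populations such as these, fewer cells of a type and less RNA per cell cannot be told apart. The smallest p that an exact permutation test allows with 3 brains is 0.25 if they stay paired and 0.1 if not, which is why limma alone was used, and its p-values rest on the spread between these 3 brains.

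**Figure D1:**
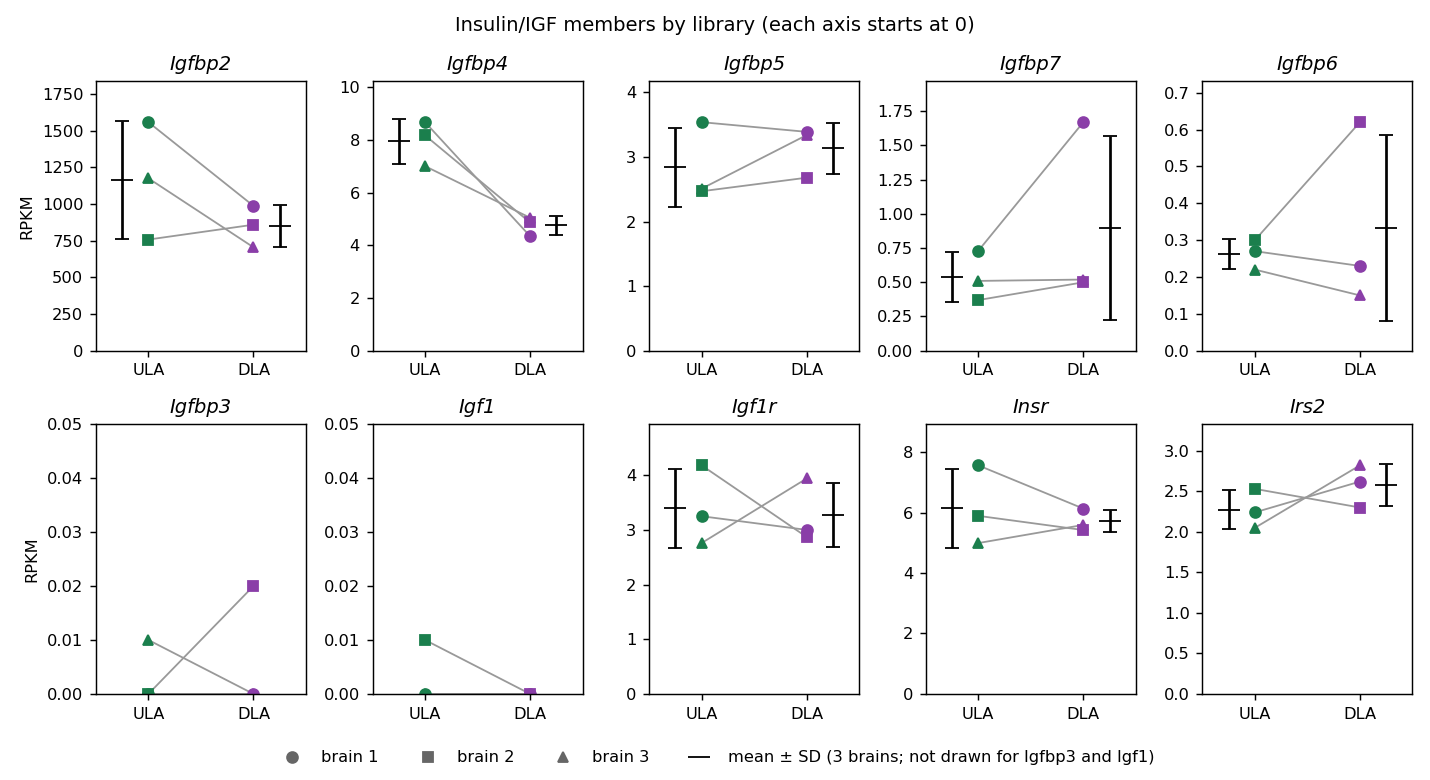
RPKM of each of the 10 genes in ULAs (green) and DLAs (purple), with a line joining the libraries of 1 brain and each axis starting at 0. Igfbp4 is the only gene of the 10 whose 3 ULA values, 7.01 to 8.68, all lie above its 3 DLA values, 4.35 to 5.05. Bars beside the points give the mean ± SD of 3 brains and are not drawn for Igfbp3 and Igf1, which are at 0 in most libraries.

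Igfbp4 encodes a binding protein known mainly as an inhibitor of IGF action, and is cut by the protease PAPP-A. Its RPKM was 8.68, 8.18 and 7.01 in the ULAs of brains 1, 2 and 3 and 4.35, 4.87 and 5.05 in the DLAs of the same brains. Every ULA value lay above every DLA value, with the widest gap in brain 1 and the narrowest in brain 3. Such a separation with ULAs above DLAs was found for 1 of the 6 tested genes, against 6.59% of all rows tested, and the opposite separation for 0 of the 6, against 9.27%. Means were 7.96 ± 0.857 RPKM for ULAs and 4.76 ± 0.364 RPKM for DLAs (SD, n = 3 each). The upper/deep ratio was 1.69 ± 0.304 over the 3 brains. In limma this came to a log2 fold change of 0.64 (95% interval 0.33 to 0.94, SE 0.14) and an adjusted p of 0.0554, which did not pass. About 387 to 439 reads per library stand behind the ULA values and 198 to 309 behind the DLA values. Igfbp4 has 4 exons and an mRNA of 2066 bases, on the plus strand of chromosome 11 from 98902574 to 98913957. Its 3 GENCODE transcripts hold 3871 windows of 36 bases (the read length). Of these windows, 4.34% recur in another gene, though in no other gene of the 10. The share within the row of 2066 bases alone was not determined.

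The call for Igfbp4 depended on which brains and rows were included, while its direction did not. By limma, the adjusted p without brain 3 was 0.00306 (log2 fold change 0.75). Without brain 1 it was 0.405 (log2 fold change 0.52). Over all rows, 1126 passed without brain 3, against 228 with all 3 brains and 217 without brain 1. Igfbp4 passed at 0.0357 where only rows of at least 5 RPKM were tested and at 0.0445 after median centring. Brain 3 also had the highest summed level of the 7 oligodendrocyte markers in ULAs (102.4 RPKM, against 72.5 and 64.5 in brains 1 and 2). Of these markers 6 were tested, and 4 were called higher in DLAs, Mog, Mbp, Mag and Mobp. Their part in the difference of Igfbp4 was not tested.

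Shares and ratios within the family do not depend on the scaling of a library. Of the summed RPKM of the binding proteins other than Igfbp2, Igfbp4 made up 65.7%, 72.3% and 68.3% in the ULAs of brains 1, 2 and 3. In the DLAs of the same brains it made up 45.1%, 56.0% and 55.7%, all below the ULA values. The ratio of Igfbp4 to Igfbp5 was 2.45, 3.31 and 2.79 in ULAs and 1.28, 1.82 and 1.51 in DLAs, again without overlap. Against Igfbp2 the layers overlapped: the ratio of Igfbp2 to Igfbp4 was 179.6, 92.7 and 167.7 in ULAs and 227.1, 176.5 and 139.7 in DLAs, lower in ULAs in brains 1 and 2 and higher in brain 3. These shares and ratios rest on the same Igfbp4 values and are given without a test.

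Igfbp2 did not behave alike in the 3 brains. Its RPKM was 1558.65, 758.07 and 1175.64 in the ULAs of brains 1, 2 and 3 and 987.76, 859.41 and 705.47 in the DLAs of the same brains. The ULA value was above the DLA value in brains 1 and 3 and below it in brain 2, and the groups overlapped. The upper/deep ratios were 1.58, 0.882 and 1.67, respectively. The fitted log2 fold change of 0.40 had an SE of 0.16, a 95% interval of 0.05 to 0.76 and an adjusted p of 0.249 (limma), without brain 2 it was 0.70 with an adjusted p of 0.00295, and without brain 3 it was 0.24 with an adjusted p of 0.313. Counting error is small here, since about 22417 to 50568 reads per library fall on this mRNA, and the spread is that between samples. None of the 36-base windows of the Igfbp2 transcripts occurs in a transcript of another gene (GENCODE vM21).

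**Figure D2:**
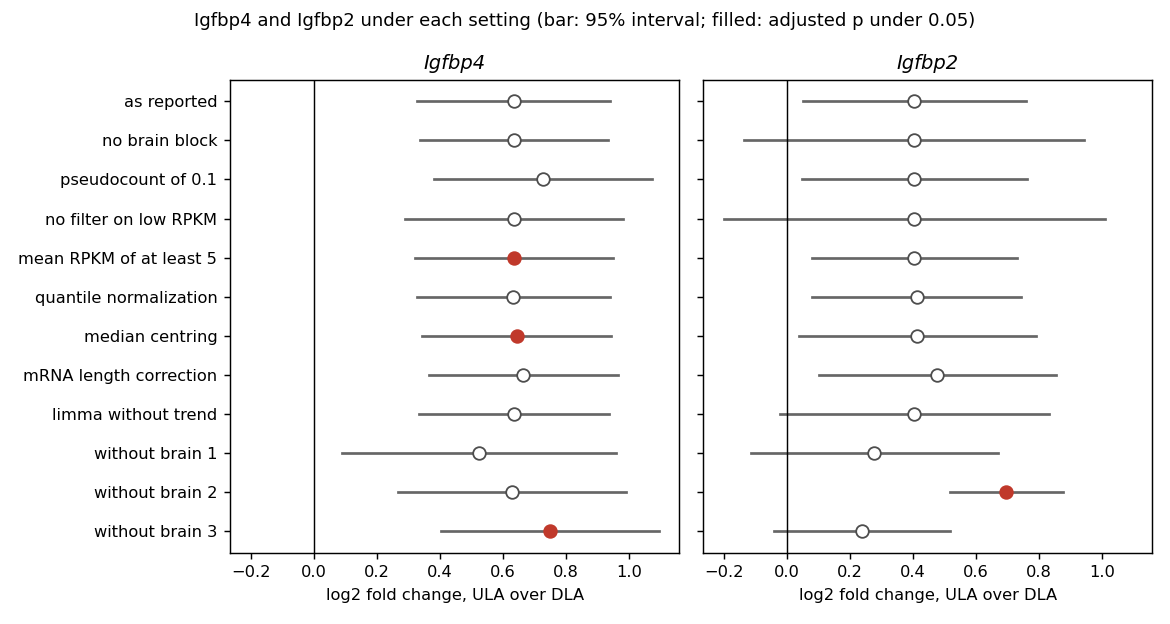
Log2 fold change (upper/deep) of Igfbp4 and Igfbp2 on the x axis, with its 95% interval as a bar, for the analysis as reported and for each alternative on the y axis, where a filled point has an adjusted p under 0.05. Igfbp4 stays between 0.52 and 0.75 and passes under 3 of 11 alternatives, and Igfbp2 stays between 0.24 and 0.70 and passes only without brain 2.

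Igfbp5 encodes a binding protein with high affinity for IGFs that also attaches to extracellular matrix. Its RPKM was 3.54, 2.47 and 2.51 in the ULAs of brains 1, 2 and 3 and 3.39, 2.68 and 3.34 in DLAs. The values overlapped, and the log2 fold change was −0.11 (95% interval −0.44 to 0.21, adjusted p = 0.742, limma). A log2 difference of 0.44 towards DLAs or of 0.21 towards ULAs thus lies within the interval.

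The remaining binding proteins were at the low end and did not reach a mean of 1 RPKM. Igfbp7 encodes a protein that binds IGFs only weakly and is known from blood vessels. It was at 0.73, 0.37 and 0.51 RPKM in ULAs and at 1.67, 0.50 and 0.52 in DLAs, so that the DLAs of brain 1 stood apart while the other 5 libraries lay together. That library also had the highest sum of the 10 endothelial markers, 4.24 RPKM against 1.01 to 2.39 in the other 5. The values of Igfbp7 rest on 12 to 54 reads, and 89 bases at the 3′ end of its row are shared with Polr2b, a gene of the opposite strand that encodes an RNA polymerase subunit. Polr2b was at 13.8 to 17.8 RPKM. Reads spread evenly over its mRNA would put 25.7 to 42.3 reads on those 89 bases in each library. Only in the DLAs of brain 1 did Igfbp7 have more reads than so reckoned (54 against 37.0). In the other 5 libraries it had fewer. Whether reads were assigned by strand is not given in the sources used here, so the level of Igfbp7 is uncertain, and the part of the endothelial and Polr2b reads was not tested.

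Igfbp6, which encodes a binding protein that prefers IGF2, was at 0.27, 0.30 and 0.22 RPKM in ULAs and at 0.23, 0.62 and 0.15 in DLAs. These values stand on 6 to 16 reads per library and overlap between the layers. Igfbp3, the main IGF carrier of blood serum, was detected with 1 read in the ULAs of brain 3 and 1 read in the DLAs of brain 2 and with 0 reads in the other 4 libraries. A count of 0 allows up to 3 reads, which for Igfbp3 amounts to 0.0416 to 0.0503 RPKM in these 4 libraries. With no filter on low RPKM, the adjusted p-values of Igfbp7, Igfbp6 and Igfbp3 were 0.652, 0.852 and 0.946 in limma.

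The ligand Igf1 was close to undetectable in both layers. It was listed at 0.01 RPKM in the ULAs of brain 2, which stands for 3 or 4 reads on a row of 7817 bases, and at 0 in the other 5 libraries. For so long a row a listed 0 can hide up to 2 reads. In the central nervous system Igf1 is known to be made by microglia and by some neurons. Of the 9 microglial markers, P2ry12 was at 7.76 to 12.6 RPKM in every library and the other 8 each averaged under 1 RPKM. With no filter the adjusted p for Igf1 was 0.946 in limma, at levels where the depth cannot show a difference.

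Both receptors were expressed at low levels, with Insr above Igf1r. Insr, the insulin receptor, gave ULA values of 7.56, 5.89 and 4.99 RPKM (brains 1, 2 and 3) and DLA values of 6.13, 5.42 and 5.59 RPKM. Igf1r, the receptor of IGF1, was at 3.25, 4.18 and 2.76 in ULAs and at 3.00, 2.87 and 3.94 in DLAs. The layers overlapped for both genes, and brain 3 went against the other brains for each of them, with the DLA value above the ULA value. The log2 fold change was 0.08 for Insr (95% interval −0.23 to 0.38, adjusted p = 0.824, limma) and 0.04 for Igf1r (95% interval −0.35 to 0.42, adjusted p = 0.938). Within a library the ratio of Insr to Igf1r ranged from 1.41 to 2.33 and was above 1 in 6 of 6 libraries. Both mRNAs are long, 9355 and 11978 bases, and with a correction for mRNA length the log2 fold changes turned to −0.076 for Insr and −0.114 for Igf1r. Insr has 21 exons on the minus strand of chromosome 8 from 3150922 to 3279617, and Igf1r 21 exons on the plus strand of chromosome 7 from 75097143 to 75378553.

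Irs2, the adaptor that carries the signal from both receptors, had an RPKM of 2.24, 2.53 and 2.05 in ULAs and of 2.62, 2.30 and 2.82 in DLAs. The DLA value was higher in brains 1 and 3 and lower in brain 2. The groups overlapped, and the log2 fold change was −0.13 (95% interval −0.47 to 0.21, adjusted p = 0.720, limma). Irs1, the other widely expressed adaptor of this kind, was above Irs2 in each library, by a ratio of 1.19 to 1.43, and Irs3 and Irs4 averaged under 0.1 RPKM. The row of Irs2 shares 162 bases with 9530052E02Rik, a non-coding row at 0.36 to 1.66 RPKM, which by the same reckoning would add 1.15 to 7.95 reads to the 182 to 335 of Irs2.

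Ordered by mean RPKM over the 6 libraries, the 10 genes ran Igfbp2, Igfbp4, Insr, Igf1r, Igfbp5, Irs2, Igfbp7, Igfbp6, Igfbp3 and Igf1. The ranges of neighbours were separate for Igfbp2 and Igfbp4, for Insr and Igf1r, for Irs2 and Igfbp7 and for Igfbp6 and Igfbp3. Igfbp4 was above Insr in 3 of 6 libraries, namely the ULAs of all 3 brains, and below it in the 3 DLA libraries. Igf1r was above Igfbp5 in 4 of 6 libraries, Igfbp5 above Irs2 in 5 of 6 and Igfbp7 above Igfbp6 in 5 of 6, so that these places in the order are not separated beyond the spread.

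A further 50 genes of the pathway were followed by role, of which 27 were tested and 0 passed in either direction. At an unadjusted p under 0.05, 2 of the 27 were higher in ULAs and 2 were higher in DLAs, beside shares of 5.64% and 10.8% over all rows, and the median log2 fold change of the 27 was 0.06. ULA values lay wholly above DLA values for 4 of the 27 (Akt2, Inppl1, Pik3cb and Rictor), against the 6.59% of all rows, and for 0 of the 27 did the DLA values lie wholly above, against 9.27%. None of the other ligands was present at a level that could be tested: Ins1 and Ins2 were at 0 in all 6 libraries and Igf2 was at 0.04 RPKM or less. Of the other receptors, Igf2r, which clears IGF2 from the cell surface, averaged 0.78 RPKM, and Insrr was at 0.02 or less. Igfbp1 was at 0, Igfbpl1 was at 0.01 or less, and Igfals averaged 0.198 RPKM.

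**Figure D3:**
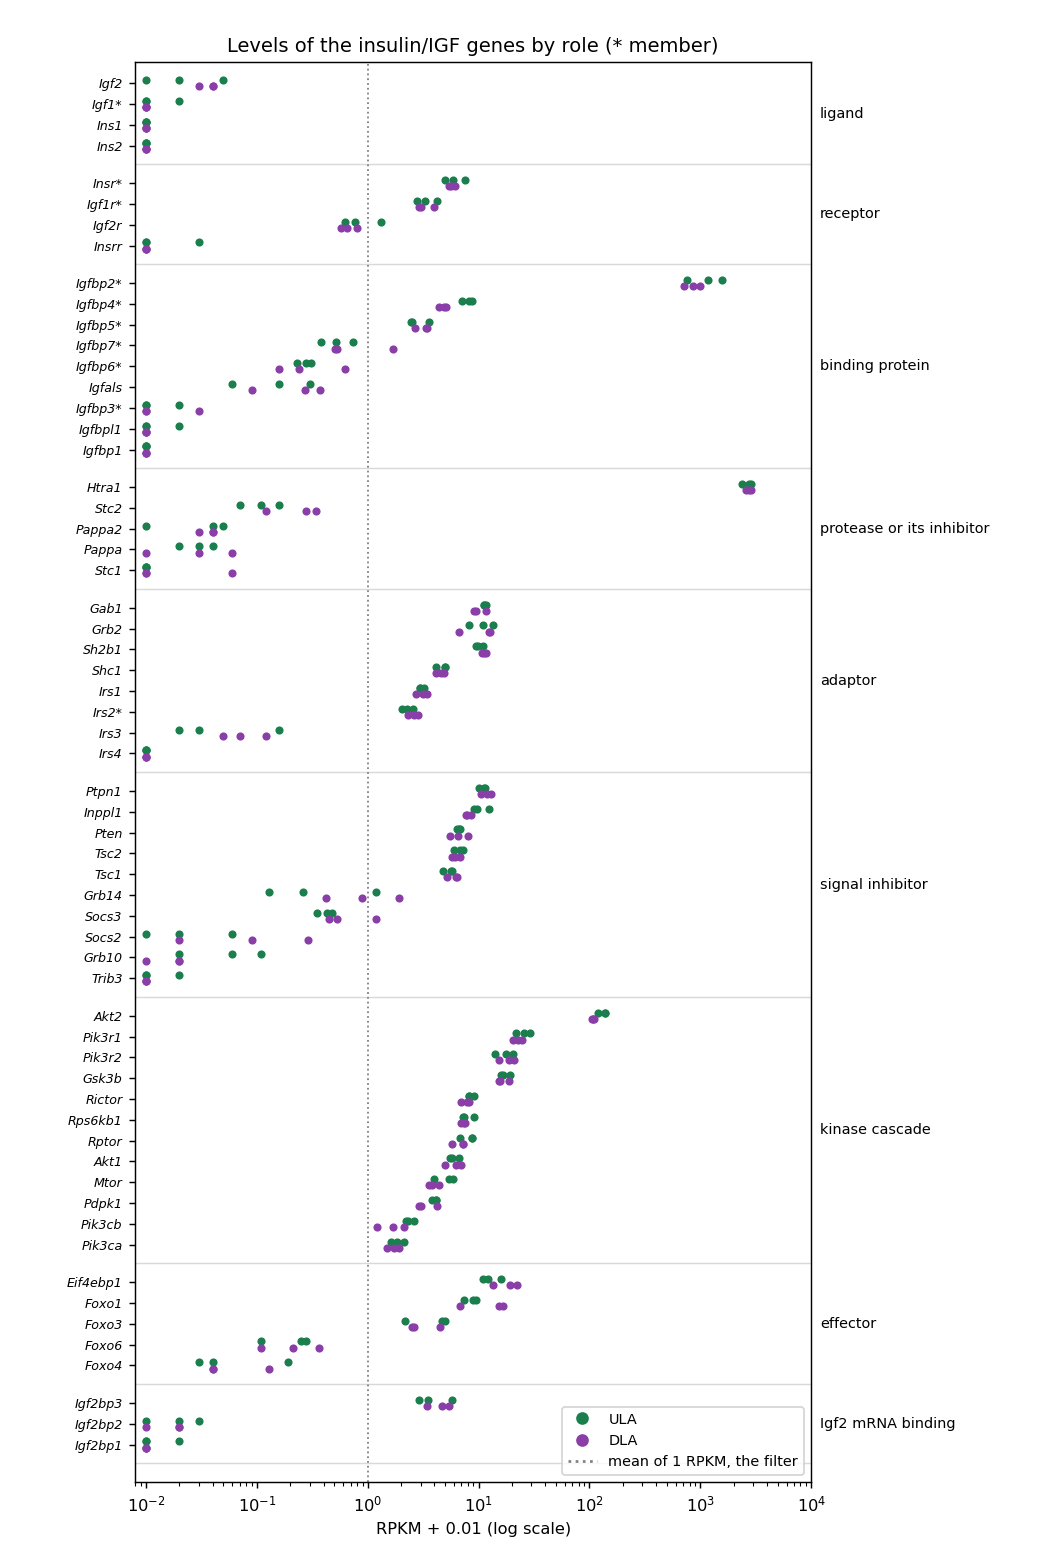
RPKM of the 10 genes (marked with a star) and of 50 other pathway genes on a log axis, with 0.01 added so that 0 can be drawn, in 3 ULA (green) and 3 DLA (purple) libraries, grouped by role. Igfbp2 and Htra1 stand far to the right of the receptors and adaptors, and the ligands lie at the left edge.

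The proteases that release IGFs were unevenly represented. Htra1, a serine protease able to cut IGFBP5, was at 2661 ± 256.9 RPKM in ULAs and 2729 ± 157.9 in DLAs, 16th among all rows (log2 fold change −0.04, limma adjusted p 0.890). It was above Igfbp2 in every library, by a ratio of 1.84 to 3.64. Pappa and Pappa2, which encode the proteases of IGFBP4 and IGFBP5, averaged 0.0217 and 0.025 RPKM, and their inhibitors Stc1 and Stc2 averaged 0.00833 and 0.170.

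In the intracellular part of the pathway, the 12 tested genes of the kinase cascade had log2 fold changes from −0.08 to 0.35. Of these, 10 were above 0 and none passed, while 6295 of the 13999 rows tested were above 0. Some of the 10 have long mRNAs, such as Rictor (9313 bases, 0.14) and Pik3ca (8917 bases, 0.07). The part of mRNA length in these signs was not tested. Akt2, the AKT form tied most closely to insulin action, was at 139.16, 119.04 and 139.28 RPKM in ULAs and at 106.84, 110.20 and 105.84 in DLAs. Its groups did not overlap, and limma gave a log2 fold change of 0.29 with an SE of 0.10 and an adjusted p of 0.194. Inppl1, a lipid phosphatase that opposes the kinase, was at 10.4 ± 1.76 and 8.03 ± 0.437 RPKM, also without overlap (log2 fold change 0.33, adjusted p = 0.228).

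Of the 3 effector genes tested, Eif4ebp1 and Foxo1 lay towards the deep layers. Foxo3 lay towards the upper layers (log2 fold change 0.21, limma adjusted p 0.595). Eif4ebp1, a translation repressor that mTOR switches off, was at 11.03, 12.04 and 16.03 RPKM in ULAs and at 13.53, 22.08 and 19.10 in DLAs, higher in DLAs in 3 of 3 brains. Limma put the log2 fold change at −0.45, with an SE of 0.14 and an adjusted p of 0.157. Without brain 3 it was −0.55 with an adjusted p of 0.0187, in a fit where 1126 of all rows passed, against 228 as reported. Without brain 2 it was −0.26 with an adjusted p of 0.3996. Foxo1, a transcription factor that AKT keeps out of the nucleus, was at 9.39, 7.31 and 8.88 in ULAs and at 16.68, 6.80 and 15.23 in DLAs. Its difference was thus seen in brains 1 and 3 only, and the log2 fold change was −0.46 (adjusted p = 0.221), or −0.74 with an adjusted p of 0.0202 without brain 2. Akt2, Inppl1, Eif4ebp1 and Foxo1 were picked out after their values were seen, as the 4 genes with an unadjusted p under 0.05. The adaptors (5 tested), the signal inhibitors (5 tested) and Igf2bp3, the only Igf2 mRNA-binding protein tested, had log2 fold changes from −0.15 to 0.33, and Grb10, Grb14, Socs2, Socs3, Trib3, Foxo4, Foxo6, Igf2bp1 and Igf2bp2 averaged under 1 RPKM.

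**Figure D4:**
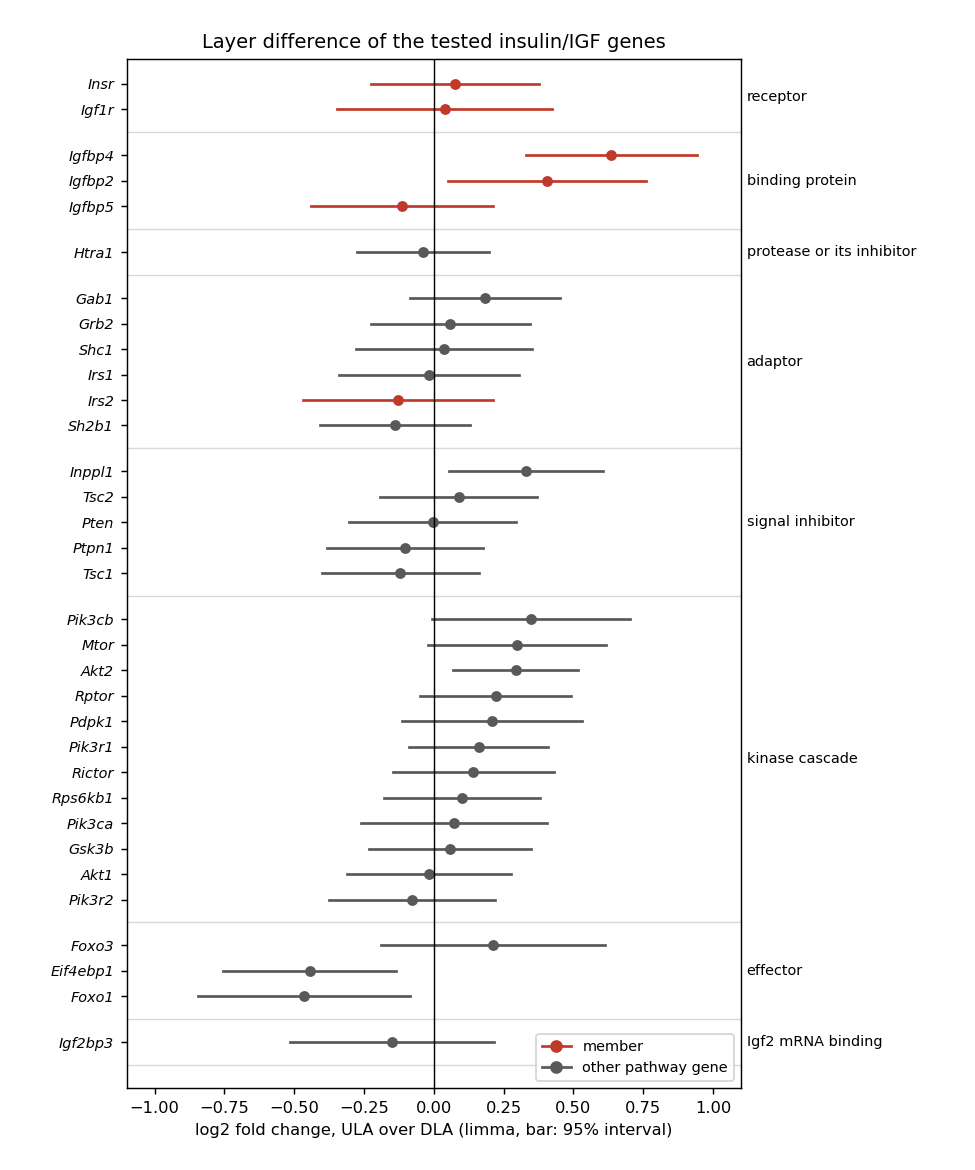
Log2 fold change (upper/deep) of the 6 members (red) and 27 other pathway genes (grey) with a mean of at least 1 RPKM, on the x axis, with 95% limma intervals as bars. The intervals of Igfbp4, Igfbp2, Akt2, Inppl1, Eif4ebp1 and Foxo1 leave out 0, and none of the genes drawn has an adjusted p under 0.05.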

How the data were processed

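The authors deposited RPKM values, which are cut to 2 decimals, for 43383 rows and 6 libraries, with the mRNA length of each row. Per the labels, cDNA from the SMART-Seq v4 kit was sequenced as single reads, and the submitters' processing notes name mm9, bcl2fastq 1.8.4 and CASAVA 1.8.2. The aligner and counting program are not given in the sources used here, nor which library had which RNA reagent. A mean of 1 RPKM or more was required, which 13999 rows met. Fold changes are on the log2(RPKM + 1) scale, which understates changes of low genes, and come from limma 3.58.1 in R 4.3.3 (intensity trend, 2-sided p-values, Benjamini-Hochberg adjustment over all rows tested), checked on simulated data. Read numbers come from the steps of RPKM in rows no longer than 500 bases, in which 100% of them fitted whole reads. At the next best depth, 68.1% to 81.8% of them did. The read numbers cover counting error only. They were also the base for the limit of 3 reads at a count of 0. The label gives replicates 1 to 3 in each layer. The number was taken as the brain, since the study pairs its test by brain and same-numbered libraries deviated together (r across rows of 0.422, 0.333 and 0.341, against −0.199 to −0.16 for other pairs). Genes are not independent replicates.

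The 10 genes, the pathway lists and the marker lists were chosen with earlier results of these data known. The 10 genes are named in full. Of the 50 others, those that passed or lay under the filter were to be named, and any others were picked after their values were seen. Of the marker symbols, 2 haemoglobin genes had no row. Some genes of the pathway and marker lists are not reported here, and sums and counts leave them out. The windows of 36 bases were compared between GENCODE vM21 transcripts on both strands. Figures were drawn with matplotlib 3.10.9. The RT-qPCR and staining experiments were not analysed here.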

Additional observations from a re-analysis of the deposited data

How the results depend on the processing

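Alternatives were a fit with no replicate block (the brain left out of the model), median centring, quantile normalization, no filter, a filter at 5 RPKM, a loess correction for mRNA length, a pseudocount of 0.1, limma without the trend, and each brain left out. Over all rows, 228 passed as reported, 41 with no replicate block, 0 with no filter (1124 higher in ULAs and 1675 in DLAs at an unadjusted p under 0.05), 143 with the length correction, 144 without the trend, and from 217 to 1126 with a brain left out, 1126 being without brain 3. Of the 10 genes, 0 passed as reported, by limma, and 0 with no replicate block, 1 (Igfbp4) at a mean RPKM of at least 5 and with median centring, and from 0 to 1 with a brain left out (Igfbp2 without brain 2, Igfbp4 without brain 3). Of the 50 pathway genes, from 0 to 1 passed with a brain left out (Foxo1 without brain 2, Eif4ebp1 without brain 3). Igf1r turned to −0.11 with the length correction and ran from −0.15 to 0.25 with a brain left out. Insr turned to −0.076 with the length correction and ran from −0.0179 to 0.183 with a brain left out. The cause was not tested. Igfbp2, Igfbp4, Igfbp5 and Irs2 kept their sign under every alternative in which they were tested. The adjusted p of Igfbp4 ranged from 0.00306 to 0.406 and that of Igfbp2 from 0.00295 to 0.875. In the fit with no replicate block they were 0.145 and 0.594. With 1 brain left out, 2 brains remain. Igf1, Igfbp3, Igfbp6 and Igfbp7 were tested only with no filter. Quantities under about 1 RPKM rest on few reads, except in long rows such as Igf2r (8929 bases, 99 to 289 reads).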
